A study of Arabidopsis thaliana with 27 samples.

Results

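The 10 genes described here encode the Arabidopsis (*Arabidopsis thaliana*) ascorbate peroxidases *APX1* (*AT1G07890*), *APX2* (*AT3G09640*), stromal *APX* (*sAPX*, *AT4G08390*) and thylakoid *APX* (*tAPX*, *AT1G77490*), the superoxide dismutases *CSD1* (*AT1G08830*), *CSD2* (*AT2G28190*), *FSD1* (*AT4G25100*), *FSD2* (*AT5G51100*) and *FSD3* (*AT5G23310*), and the glutathione peroxidase *GPX7* (*AT4G31870*). They were taken as a list of gene identifiers drawn up with earlier results of these data known, and *GPX7* is the only glutathione peroxidase gene among them, so their differences are not independent of that choice. All 10 were found in each of 27 count files, among 33602 genes listed and 33323 nuclear genes. The RNA-seq libraries fall into 9 groups of 3 replicates and were made from protoplasts of 17-d-old plants grown in constant white light of 50 µE. In 6 groups, leaf protoplasts of *IQD22*_pro_:*GUS-mCit* plants, a single reporter line in the Col-0 background that carries a GUS-mCitrine (mCit) fusion under the *IQD22* promoter, were sorted into a palisade population (chlorophyll and mCit fluorescence) and a reference population (chlorophyll without mCit). These 2 populations were collected without transcription inhibitors, with the transcription inhibitors actinomycin D and cordycepin in the protoplasting solution, and with inhibitors after 2 h at 300 µE (high light). In 2 further groups, leaf protoplasts of JR11-2, a GAL4 enhancer trap line introgressed into Col-0 whose GFP is highest in the lower spongy mesophyll, were sorted without inhibitors into GFP-negative chlorophyll-containing cells, which the labels call palisade, and GFP-positive cells, which they call reference. The last group is total, unsorted root protoplasts of Col-0 without inhibitors. Each leaf replicate is a pool of protoplasts from the first true leaves of many plants, and a palisade and a reference library that share a pool are paired. Tests of paired libraries measure how far the difference within a pool varies from pool to pool. Tests of unpaired libraries measure the spread between replicates.

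Chloroplasts in the light pass electrons to oxygen and form superoxide, which superoxide dismutases convert to hydrogen peroxide, and ascorbate peroxidases and glutathione peroxidases then reduce the peroxide to water. *APX1* and *APX2* encode cytosolic enzymes, *sAPX* a peroxidase of the chloroplast stroma that is also found in mitochondria, and *tAPX* one bound to thylakoids. Among the dismutases, *CSD1* encodes the cytosolic and *CSD2* the chloroplast copper/zinc enzyme, *FSD1* an iron enzyme found in chloroplasts and cytosol, and *FSD2* and *FSD3* chloroplast iron enzymes associated with nucleoids, while *GPX7* encodes a chloroplast member of the glutathione peroxidase family. Plants trade the copper/zinc for the iron enzymes according to copper supply, a switch in which the transcription factor SPL7 and the microRNA miR398, which targets *CSD1*, *CSD2* and the copper chaperone gene *CCS*, take part.

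Expression is given as CPM (the count scaled to a common library size) after TMM scaling of all 27 libraries together, and levels of different genes are compared only per kilobase of transcript. Gene counts summed to between 15074702 and 38792923 in each library. Before TMM scaling, 3 counts thus correspond to 0.0773 to 0.199 CPM, a limit that covers counting error only. A gene passed the test when its false discovery rate (FDR, from the quasi-likelihood test of edgeR, adjusted over all genes tested by the Benjamini-Hochberg method) was below 0.05, and the call with a fold-difference asked for more than 2-fold as well. In the *IQD22* line marker genes followed the sort, and those of JR11-2 are given below. The summed level of the bundle sheath and phloem markers was 5.73 to 20.4 CPM in *IQD22* palisade libraries and 48.0 to 94.4 CPM in reference libraries. That of 3 guard cell markers was 4.47 to 108 CPM against 48.0 to 267 CPM, ranges that overlapped across conditions but not within any condition. It was nearly all *TGG1*, with *FAMA* and *SLAC1* near 0. With inhibitors at low light, 4 palisade markers summed to 171 to 209 CPM in palisade and 38.2 to 41.0 CPM in reference cells. They are not particular to leaf, with 228 to 356 CPM in root. The mesophyll markers *CAB3* and *RBCS2B* were high in all leaf libraries and summed to 1.06 to 1.75 CPM in root. Because the libraries are bulk samples, fewer cells of a type and less RNA per cell cannot be told apart, and the part of other cell types in the differences below was not tested.

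Per kilobase, either *FSD1* or *APX1* had the highest level of the 10 genes in every leaf library, and *APX2* had the lowest. The distance to the next gene was not always wide: with inhibitors at low light, palisade cells averaged 294 CPM per kilobase for *APX1* and 182 for *CSD2*. *FSD1* averaged 1125 CPM per kilobase in palisade cells with inhibitors at low light. It made up 81.8% of the summed level of the 5 dismutase genes there, against 13.2% for *CSD2*, 2.77% for *CSD1*, 1.18% for *FSD2* and 1.01% for *FSD3*. In root, *CSD1* made up 84.3% of the dismutase sum and *FSD1* only 1.53%. The iron form exceeded the copper/zinc form of the chloroplast in every leaf library, since the per-kilobase ratio of *FSD1* to *CSD2* lay between 1.72 and 16.3 in leaf and between 0.0661 and 0.147 in root. Among the peroxidase genes, *APX1* made up 61.9% to 92.1% of the summed level of the 4 genes in every group. The thylakoid gene exceeded the stromal gene in every leaf library, with a *tAPX* to *sAPX* ratio of 1.17 to 3.33, and was far below it in root, at 0.00956 to 0.0188. *APX2* stayed under 1 CPM in all 27 libraries, with 1 to 47 counts per library, and is described only by these counts and its tests.

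**Figure D1:**
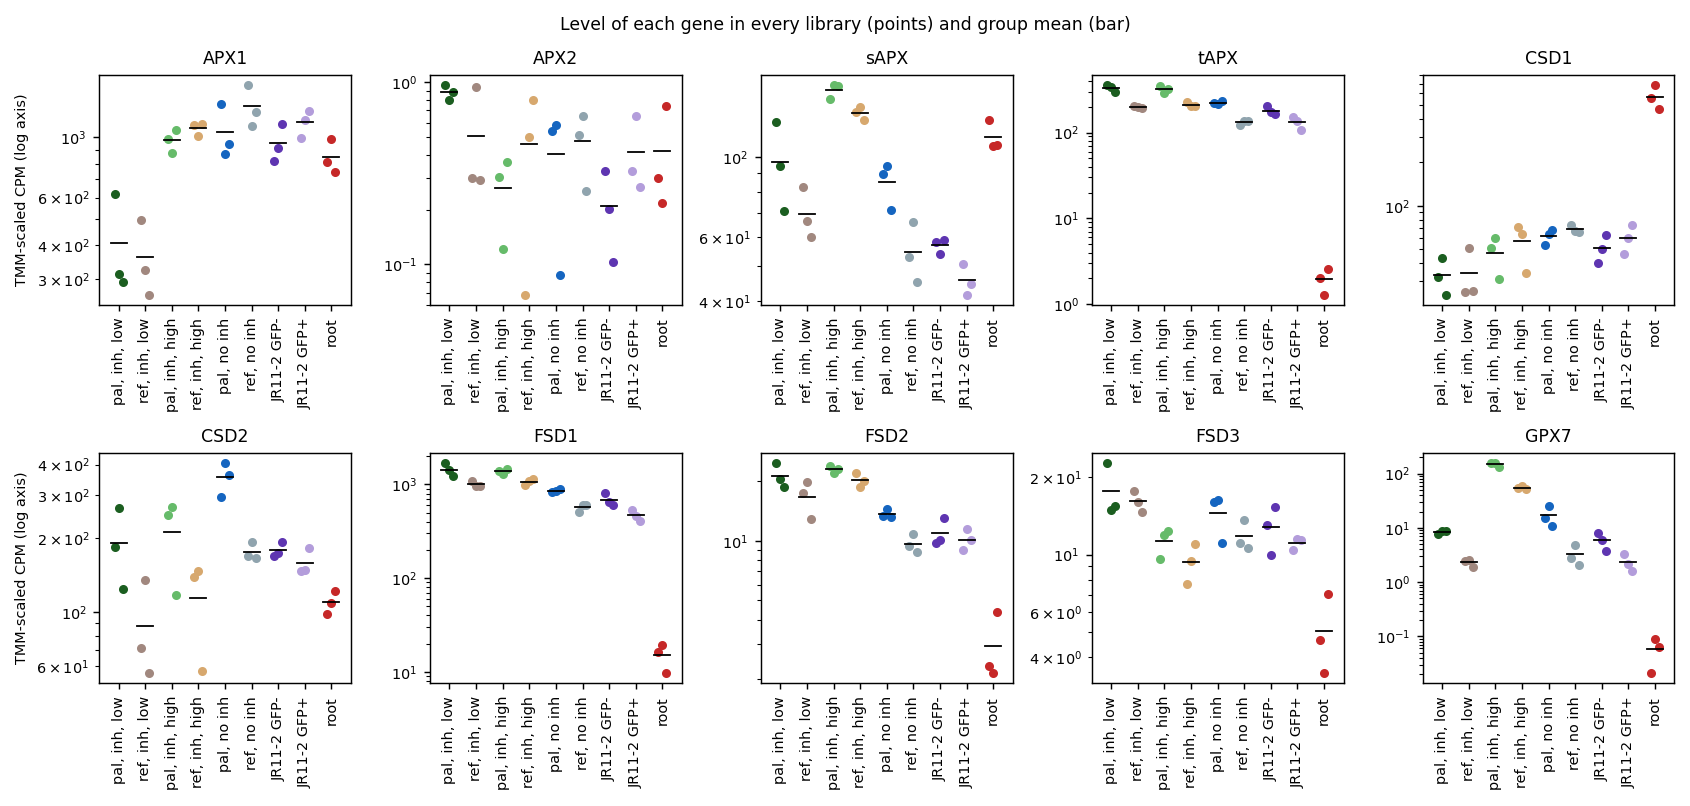
Level of each of the 10 genes (CPM, log axis) in the 27 libraries, by group; each point is 1 library and each bar a group mean (pal, palisade; ref, reference; inh, inhibitors; low and high, light). *FSD1*, *tAPX* and *GPX7* are lowest in root, *CSD1* is highest in root, and *GPX7* spans the widest range, from 0.0213 CPM in a root library to 154.7 CPM in a palisade library after high light.

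Palisade and reference cells of the *IQD22* line were compared within pools under 3 conditions. *GPX7* showed the largest difference of the 10 genes in each of them. With inhibitors at low light, it was measured at 7.80, 8.86 and 8.64 CPM in the palisade libraries and at 2.41, 2.61 and 1.94 CPM in the reference libraries, groups that did not overlap. Its log2 fold change was 1.73 (SE 0.17, FDR 2.42e-07), a fold-difference of 3.31. Without inhibitors the palisade values of 14.9, 25.5 and 11 CPM again lay above the reference values of 2.83, 4.88 and 2.07 CPM, and the log2 fold change was 2.35 (SE 0.12, FDR 2.60e-10). The replicates spread more here than with inhibitors, and the second pool was the highest in both populations. After high light, palisade cells reached 154.7, 153.5 and 133.1 CPM and reference cells 54.0, 58.1 and 53.1 CPM (log2 fold change 1.35, SE 0.07, FDR 3.13e-17). *GPX7* passed the 2-fold call in all 3 conditions, which 7.69%, 8.75% and 8.42% of the genes tested passed with inhibitors, without inhibitors and after high light. In the paper, a promoter reporter for *GPX7* gave no detected expression. For reporters without localized palisade expression, the paper names missing regulatory elements, weak expression or contaminating sorted cells as possible reasons.

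Of the ascorbate peroxidase genes, the chloroplast gene *tAPX* was higher in palisade cells in 3 conditions and *sAPX* in 2, and the cytosolic *APX1* in 0. *tAPX* was measured with inhibitors at 357.0, 337.8 and 300.0 CPM in palisade cells and at 204.7, 199.6 and 192.5 CPM in reference cells, and the lowest palisade library exceeded the highest reference library by a wide margin. It was higher in palisade cells in all 3 conditions, with log2 fold changes of 0.60 (SE 0.07, FDR 1.22e-06) with inhibitors, 0.72 (SE 0.08, FDR 3.86e-06) without inhibitors and 0.53 (SE 0.06, FDR 1.63e-08) after high light. *sAPX* was higher in palisade cells with inhibitors (log2 fold change 0.32, SE 0.08, FDR 0.00506) and without them (0.60, SE 0.09, FDR 2.76e-05). After high light its difference of 0.15 did not pass the test (FDR 0.0679), and with inhibitors at low light the call was lost without replicate 2 (FDR 0.0753). *APX1* differed by 0.00 on the log2 scale with inhibitors at low light. It was lower in palisade cells without inhibitors (log2 fold change -0.36, SE 0.09, FDR 0.00596), where the palisade libraries held 1325, 868.7 and 942.0 CPM and the reference libraries 1554, 1096 and 1242 CPM, lower in each pool although the groups overlapped. It was also lower after high light (-0.21, SE 0.06, FDR 0.00786), a call lost without replicate 1 (FDR 0.111) or replicate 2 (FDR 0.182). *APX2* did not pass the test in any of the 3 conditions.

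Among the dismutase genes, *CSD2* differed most between the populations, and *FSD1* differed by less at a much higher level. *CSD2* was measured with inhibitors at 184.9, 265.5 and 124.5 CPM in palisade cells and at 71.5, 135.1 and 56.3 CPM in reference cells. The groups overlapped because pools differed, yet the palisade library was the higher in every pool, and the log2 fold change was 1.03 (SE 0.08, FDR 4.41e-09). The 2-fold call of *CSD2* was lost without replicate 1. *CSD2* was also higher in palisade cells without inhibitors (0.96, SE 0.09, FDR 3.44e-07) and after high light (0.85, SE 0.07, FDR 1.29e-12). *FSD1* was measured with inhibitors at 1680, 1428 and 1218 CPM in palisade cells and at 1097, 960.9 and 957.3 CPM in reference cells, with no overlap, and was higher in palisade cells by log2 fold changes of 0.38 (SE 0.07, FDR 0.00015), 0.55 (SE 0.09, FDR 0.000166) and 0.32 (SE 0.07, FDR 0.00015) with inhibitors, without inhibitors and after high light. *CSD1*, the cytosolic counterpart of *CSD2*, had differences of -0.13 and -0.20 that did not pass the test with and without inhibitors, and it was lower in palisade cells after high light (-0.31, SE 0.08, FDR 0.00323), where it lost its call without replicate 1 (-0.17, FDR 0.106). *FSD2* passed the test only without inhibitors (0.47, SE 0.11, FDR 0.00202). Its partner gene *FSD3* gave differences of -0.02 to 0.25 that did not pass the test.

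Counted together, 5 of the 10 genes were higher in palisade cells and 0 lower with inhibitors at low light, where 30.3% of all genes tested passed (15.2% higher, 15% lower). Without inhibitors 6 were higher and 1 was lower, against 34.8% of all genes (17.6% higher, 17.3% lower). After high light 4 were higher and 2 lower, against 37.2% (18.2% higher, 19% lower). All genes called higher encode enzymes found in chloroplasts, 5, 6 and 4 of the 7 such genes, and the genes called lower are among the 3 that encode cytosolic enzymes, a grouping made after the values were seen. The median log2 fold change of the 7 chloroplast genes was 0.38, 0.60 and 0.32 in these conditions, beside medians over all genes tested of -0.03, -0.003 and -0.01. The 4 markers of bundle sheath and phloem were lower in palisade libraries in the same comparisons, as were 2 of 3 epidermis markers in each. Of the 3 guard cell markers only 1 was lower in each, and the others did not pass or were not tested. Their sum is nearly all *TGG1*, which the paper also uses as a marker of myrosinase idioblasts. The summed mesophyll markers were higher with inhibitors at low light, at 9324 to 10420 CPM against 5282 to 7293 CPM, and without inhibitors, at 3919 to 5844 CPM against 2520 to 3721 CPM. After high light their sums overlapped, at 5219 to 7807 CPM against 4668 to 7071 CPM, with 1 of the 2 markers higher and 1 lower.

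**Figure D2:**
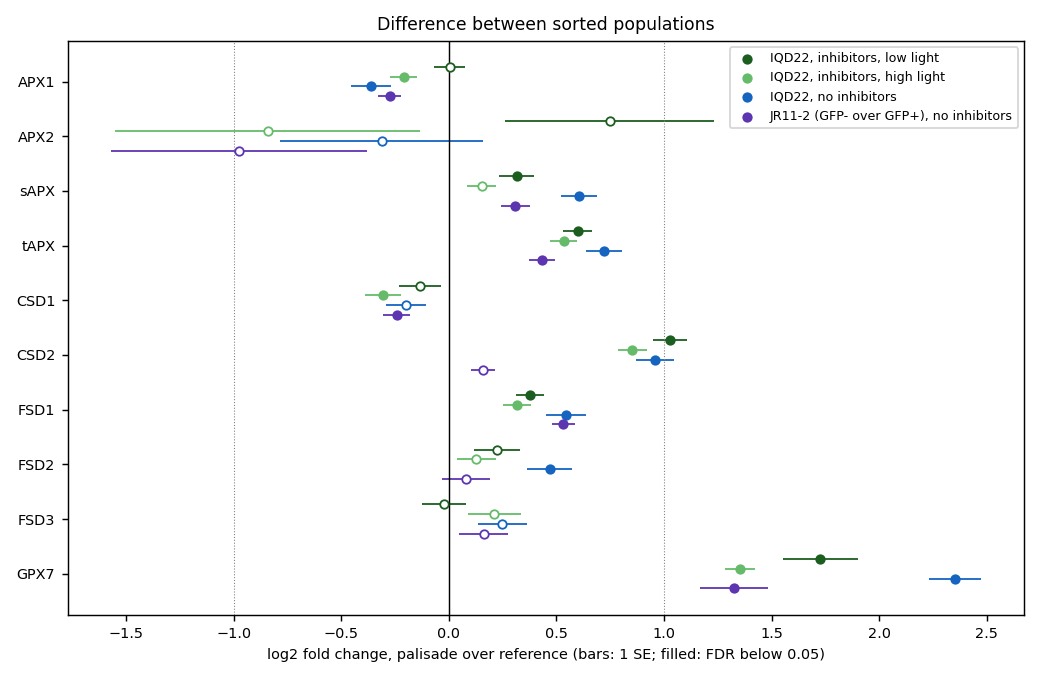
Log2 fold change of each of the 10 genes between palisade and reference cells (3 conditions of the *IQD22* line) and between GFP-negative and GFP-positive cells (JR11-2), with 1 SE; filled points passed the test at an FDR below 0.05. *GPX7* lies farthest to the right in every comparison, and *CSD2* lies near 1 in the *IQD22* line but at 0.16 in JR11-2.

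Other genes of the same pathways were grouped in the same way. The values are from the comparison with inhibitors at low light, where 30.3% of all genes tested passed (15.2% higher, 15% lower). Of 12 genes tested for catalases and the peroxiredoxin system, 8 were higher and 1 was lower in palisade cells with inhibitors at low light, with a median log2 fold change of 0.58. Those higher included *PRXQ*, a chloroplast peroxiredoxin (1.11, SE 0.07), and *CAT2*, the main leaf catalase of photorespiration (0.84, SE 0.07), and the only one lower was the catalase gene *CAT3* (-4.04, SE 0.08). Of the other members of the same enzyme families, 5 of 12 tested were higher and 1 was lower. *GPX1*, a chloroplast relative of *GPX7*, was higher by 0.38, *TL29*, a lumenal protein related to ascorbate peroxidases, was higher by 0.58, and *GPX8* was lower by 0.70. Of 12 genes that recycle ascorbate and glutathione, 3 were higher (*MDAR4*, *DHAR3* and the chloroplast glutathione reductase gene *GR2*) and 3 were lower (*DHAR1*, *GR1* and *GSH1*), with a median of -0.01. Among 8 genes tested of copper handling, *CCS*, whose product loads copper into the copper/zinc dismutases, was higher by 0.73 (SE 0.09), the copper chaperone gene *CCH* was lower by 2.08 (SE 0.20), and the precursor transcript of miR398c was lower by 1.05 (SE 0.13), a row that counts polyadenylated precursor and not the mature microRNA.

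In JR11-2 the same genes were compared between GFP-negative and GFP-positive cells. *GPX7* was measured at 8.08, 5.98 and 3.68 CPM in GFP-negative and at 3.31, 2.13 and 1.59 CPM in GFP-positive cells, with no overlap and a log2 fold change of 1.32 (SE 0.16, FDR 2.81e-06). The chloroplast genes *FSD1* (0.53, SE 0.05, FDR 2.16e-07), *tAPX* (0.43, SE 0.06, FDR 2.21e-05) and *sAPX* (0.31, SE 0.07, FDR 0.00194) were higher in GFP-negative cells, and the cytosolic *APX1* (-0.28, SE 0.05, FDR 0.000607) and *CSD1* (-0.24, SE 0.06, FDR 0.00678) were lower. Without replicate 1 the last 2 calls were lost (FDR 0.0633 and 0.0665). In all, 4 of the 10 genes were higher and 2 lower, against 19.8% of all genes tested (9.72% higher, 10.1% lower), and only *GPX7* passed the 2-fold call, against 2.16%. Markers of other cell types did not move as in the *IQD22* sort. The guard cell marker *TGG1* was higher in GFP-negative cells by 0.84 (SE 0.12), with a summed guard cell level of 38.0 to 111.9 CPM against 25.3 to 70.2 CPM. Of the 4 bundle sheath and phloem markers 2 were higher and 1 lower, with overlapping sums of 33.1 to 60.2 CPM against 40.4 to 57.7 CPM, and 1 of 3 epidermis markers was higher. Their part in the differences was not tested. *CSD2* was measured at 169.0, 174.0 and 192.9 CPM in GFP-negative and at 146.4, 147.9 and 183.3 CPM in GFP-positive cells, overlapping ranges with a difference of 0.16 that did not pass the test (FDR 0.0558). The chaperone gene *CCS* gave -0.01 (SE 0.06) in the same libraries.

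The difference between populations was itself compared between both lines without inhibitors, in a model over 12 libraries. It was larger in the *IQD22* line by 1.04 on the log2 scale for *GPX7* (SE 0.20, FDR 0.000479), by 0.82 for *CSD2* (SE 0.10, FDR 1.05e-06), by 0.31 for *sAPX* (SE 0.10, FDR 0.0396) and by 0.30 for *tAPX* (SE 0.10, FDR 0.0318). These 4 of 10 genes, all larger in the *IQD22* line, compare with 15.2% of all genes tested (7.86% larger), and *GPX7* alone passed the 2-fold call, against 4.58%. Of all genes called, 51.7% were larger in the *IQD22* line, or 40.0% after upper-quartile scaling. *CCS* differed likewise, by 0.90 (SE 0.12), while *APX1*, *CSD1* and *FSD1* differed by -0.07 to 0.06 and did not pass. *GPX7* and *CSD2* kept their calls with each replicate left out, and *sAPX* and *tAPX* lost theirs each time. The sorting gate, the marker gene and the genetic line differ together here and cannot be told apart. The summed markers of the reference cells also differed less in JR11-2, at 101 to 123 CPM against 243 to 310 CPM, than in the *IQD22* line, at 11.3 to 19.7 CPM against 397 to 502 CPM. Of these 3 markers, 2 were lower and 1 was higher in GFP-negative cells of JR11-2, while all 3 were lower in *IQD22* palisade cells.

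High light for 2 h was tested in palisade and in reference cells, both with inhibitors. *GPX7* rose most, from the 7.80 to 8.86 CPM given above to between 133.1 and 154.7 CPM in palisade cells, 16.1-fold or 4.01 on the log2 scale (SE 0.14, FDR 6.59e-09). In reference cells it rose from at most 2.61 CPM to at least 53.1 CPM, a log2 fold change of 4.37 (SE 0.14, FDR 5.09e-09) or 20.7-fold. Reference cells after high light thus held more *GPX7* transcript than palisade cells in low light in every library, with or without inhibitors. The 2-fold call was passed by 13.2% of all genes tested in palisade and 16.6% in reference cells.

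The cytosolic *APX1* also rose. In palisade cells it was measured at 616.0, 314.0 and 292.7 CPM in low light, where replicate 1 stood above the others, and at 981.3, 874.1 and 1066 CPM in high light, a log2 fold change of 1.15 (SE 0.23, FDR 0.00236). In reference cells it went from 495.2, 325.5 and 264.0 CPM to 1107, 1009 and 1119 CPM, a log2 fold change of 1.38 (SE 0.20, FDR 0.000175). The light groups did not overlap in either population. *APX2*, known from other work as an excess-light gene, was counted 13, 12 and 15 times in palisade libraries in low light and 4, 2 and 5 times in high light, and it fell by 1.86 on the log2 scale (SE 0.50, FDR 0.0124), a call lost without replicate 2 (FDR 0.081). In reference cells its counts of 7, 18 and 6 in low light and 1, 9 and 15 in high light overlapped, and its difference of -0.25 did not pass the test (FDR 0.805). Of the chloroplast peroxidases, *sAPX* rose, by 0.56 (SE 0.17, FDR 0.0197) in palisade cells and 0.73 (SE 0.12, FDR 0.000638) in reference cells. The palisade call for *sAPX* was lost without replicate 2 (FDR 0.188) or replicate 3 (FDR 0.148). *tAPX* gave -0.17 and -0.11, which did not pass the test.

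Of the 5 dismutase genes *FSD3* passed the test for high light, and the other 4 did not. *FSD3* fell from 22.6, 14.9 and 15.4 CPM to 9.62, 12 and 12.4 CPM in palisade cells (log2 fold change -0.74, SE 0.17, FDR 0.00605) and from 17.7, 16.0 and 14.6 CPM to 7.72, 9.47 and 11 CPM in reference cells (-0.96, SE 0.16, FDR 0.000465), without overlap in either. *FSD2*, which encodes its partner, gave 0.00 in palisade and 0.09 in reference cells. *FSD1* changed by -0.16 and -0.10, *CSD2* by 0.04 and 0.20 and *CSD1* by 0.40 and 0.55, none of which passed the test. *CSD2* and *FSD2* turned to -0.07 and -0.11 in palisade cells, and *FSD2* to -0.008 in reference cells, under upper-quartile scaling, which moved the median of all genes in palisade cells from -0.005 to -0.119. In total 3 of the 10 genes rose and 2 fell in palisade cells, against 35.6% of all genes tested (19.2% higher, 16.4% lower), and 3 rose and 1 fell in reference cells, against 42.4% (21.8% higher, 20.5% lower). Of the palisade genes called, 53.8% were higher in high light, or 41.5% under upper-quartile scaling.

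**Figure D3:**
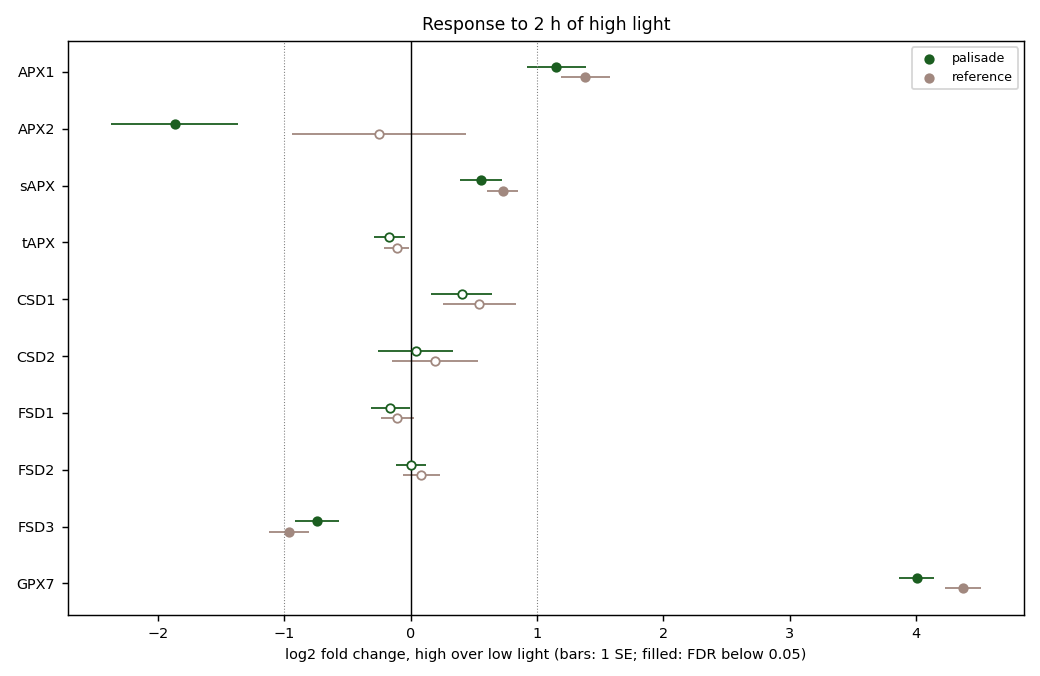
Log2 fold change of each of the 10 genes in high light relative to low light, in palisade and reference cells, with 1 SE; filled points passed the test at an FDR below 0.05. *GPX7* lies near 4 in both populations, *APX1* above 1, and *FSD3* below 0.

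The light response did not pass a test of its difference between the populations for any of the 10 genes. Of all genes tested 5.54% passed, and 2 of the 10 had an unadjusted p below 0.05 with edgeR: *GPX7*, whose response was smaller in palisade cells by 0.39 on the log2 scale (SE 0.16, FDR 0.196), and *APX1*, smaller by 0.23 (SE 0.10, FDR 0.2). DESeq2 and edgeR's likelihood ratio test passed 0 of 10 as well.

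Of 12 genes of ascorbate and glutathione recycling, 7 were higher and 1 was lower in high light in palisade cells (median 0.73) and 9 higher, 1 lower, in reference cells (median 0.75), beside the 35.6% and 42.4% of all genes that passed. *DHAR2*, a cytosolic dehydroascorbate reductase gene, rose by 2.33 and 2.67, and *GR1* and *GSH2*, of glutathione reduction and synthesis, by 1.02 to 1.11. *MDAR6*, which encodes an organellar monodehydroascorbate reductase, fell by 1.90 and 1.79, and *MDAR3* rose in reference cells by 3.61. Within the families of the 10 genes, *GPX2* (1.42 and 1.18) and *GPX6* (2.16 and 2.17) rose, *GPX1* gave -0.19 in both populations and did not pass, and *TL29* fell by 1.03 and 0.97. The peroxiredoxin gene *PRXIIC* rose by 3.63 and 3.78 and the catalase gene *CAT2* by 0.96 and 1.21, while *CAT3* fell by 1.13 and 0.83. The miR398c precursor fell by 1.20 (SE 0.20) and 2.10 (SE 0.21), while its target transcripts *CSD1* and *CSD2* did not pass the test. The light stress genes *ELIP1* (10.92 and 7.60) and *ELIP2* (7.92 and 8.36), whose products protect thylakoids, rose most of the list of high light and hydrogen peroxide response, of which 6 of 7 genes in palisade (median 0.73) and 7 of 7 in reference cells (median 1.03) were higher.

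Cells sorted without inhibitors were compared with cells sorted with inhibitors, from different pools, at low light. These libraries also differed in the share of reads placed in no gene, 1.486% to 2.705% without and 0.656% to 0.839% with inhibitors. Gene counts were 21446134 to 26681749 without and 15074702 to 19233615 with inhibitors. Such differences between library sets cannot be told apart from inhibitor use here, and their part was not tested. In both populations *APX1*, *CSD1* and *CSD2* were higher without inhibitors, and *FSD1*, *FSD2* and *tAPX* were lower. *APX1* was measured without inhibitors at 1325, 868.7 and 942.0 CPM in palisade cells, above the 292.7 to 616.0 CPM found with inhibitors, a log2 fold change of 1.44 (SE 0.28, FDR 0.00259), and it changed by 1.82 (SE 0.23, FDR 8.63e-05) in reference cells. *CSD1* was higher by 0.95 (SE 0.20, FDR 0.00409) and 1.00 (SE 0.24, FDR 0.00516), and *CSD2* by 0.95 (SE 0.25, FDR 0.0124) and 0.99 (SE 0.26, FDR 0.00827), in palisade and reference cells. *GPX7* was higher in palisade cells (1.07, SE 0.27, FDR 0.0104), from between 7.80 and 8.86 CPM to between 11 and 25.5 CPM, and did not pass in reference cells (0.45, FDR 0.236).

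*FSD1* was lower without inhibitors, at 834.6, 848.6 and 883.9 CPM in palisade cells against 1218 to 1680 CPM with inhibitors, a log2 fold change of -0.69 (SE 0.17, FDR 0.00905), and by -0.84 (SE 0.13, FDR 0.000379) in reference cells. *FSD2* (-0.57 and -0.81) and *tAPX* (-0.51 and -0.63) were lower in both populations, and *FSD3* was lower in reference cells (-0.48, FDR 0.014). The per-kilobase ratio of *FSD1* to *CSD2* was 1.72 to 2.33 in palisade cells without and 4.42 to 8.03 with inhibitors, and 2.46 to 3.03 against 5.84 to 14.0 in reference cells. Without replicate 2 the palisade calls of *tAPX* (FDR 0.223), *FSD1* (FDR 0.155), *FSD2* (FDR 0.0806) and *GPX7* (0.74, FDR 0.0724) were lost, as was that of *CSD2* without replicate 3 (FDR 0.074), and the *FSD3* call in reference cells was lost without replicate 1 (FDR 0.0901) or replicate 3 (FDR 0.0842).

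In palisade cells 4 of the 10 genes were higher and 3 lower, against 36.4% of all genes tested (24.6% higher, 11.8% lower), and in reference cells 3 were higher and 4 lower, against 50.6% (27.2% higher, 23.4% lower). The 2-fold call was passed by 2 of the 10 genes in palisade and 1 in reference cells, against 19.9% and 22% of all genes. Upper-quartile scaling moved the median of all genes from 0.03 to -0.27 in palisade and from -0.04 to -0.30 in reference cells, and the share of higher genes among those called from 67.7% to 38.6% and from 53.7% to 37.5%. All calls among the 10 genes kept their direction under it. Of the 7 genes of high light and hydrogen peroxide response, 6 were higher without inhibitors in palisade cells (median 3.08) and 5 in reference cells (median 4.24), among them the heat shock gene *HSP101* (7.84 and 8.82). Among relatives of the 10 genes *GPX6* (2.99 and 3.45), *MDAR2* (3.71 and 3.74) and *DHAR2* (2.55 and 2.88) were higher without inhibitors. The inhibitor difference itself was tested between populations, and of the 10 genes only *APX1* passed, against 4.75% of all genes: its difference between palisade and reference cells was lower by 0.47 on the log2 scale without inhibitors than with them (SE 0.12, FDR 0.0162). That call was lost without replicate 2 (-0.58, FDR 0.101) or replicate 3 (-0.28, FDR 0.554).

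**Figure D4:**
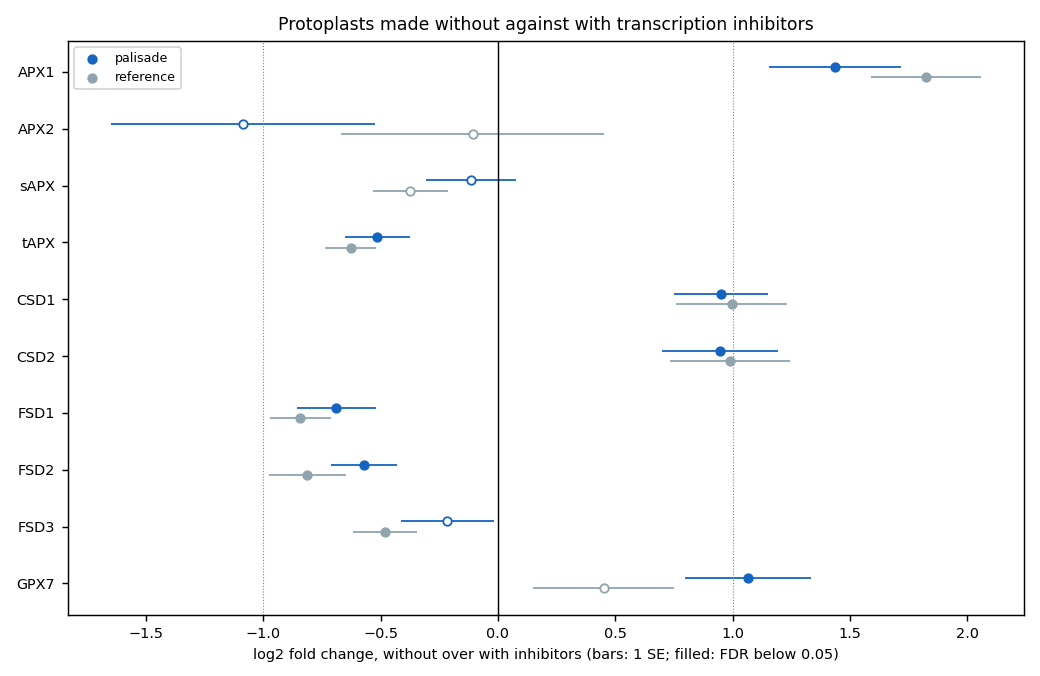
Log2 fold change of each of the 10 genes without inhibitors relative to with inhibitors, in palisade and reference cells at low light, with 1 SE; filled points passed the test at an FDR below 0.05. *APX1*, *CSD1* and *CSD2* lie to the right of 0 and *tAPX*, *FSD1* and *FSD2* to the left in both populations.

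*CSD1*, *CSD2* and *CCS*, 3 of the transcripts targeted by miR398, varied together between pools of cells collected with inhibitors. Replicate 3 was lowest for *CSD2* and *CCS* in all 4 groups with inhibitors, and lowest for *CSD1* in 3 of them. The highest replicate exceeded the lowest by 2.13 to 2.57 times for *CSD2*, 2.04 to 2.54 times for *CCS* and 1.80 to 2.09 times for *CSD1*, against 1.15 to 1.38 times for *FSD1* and 1.06 to 1.20 times for *tAPX* in the same libraries. The spread was not particular to these 3 genes, since *APX1* at low light also had its lowest level in replicate 3 and spread 2.10 times in palisade and 1.88 times in reference cells, though only 1.11 to 1.22 times in high light. Pools of low and high light with the same number are different pools, and a shared handling of equally numbered replicates is not stated in the labels. The miR398c precursor was measured in replicates 1, 2 and 3 at 7.28, 5.73 and 5.76 CPM in palisade and 10.9, 11.9 and 12.5 CPM in reference cells in low light. In high light it stood at 3.26, 2.78 and 2.76 CPM in palisade and 4.44, 2.73 and 2.41 CPM in reference cells. Its relation to the differences between pools was not tested.

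**Figure D5:**
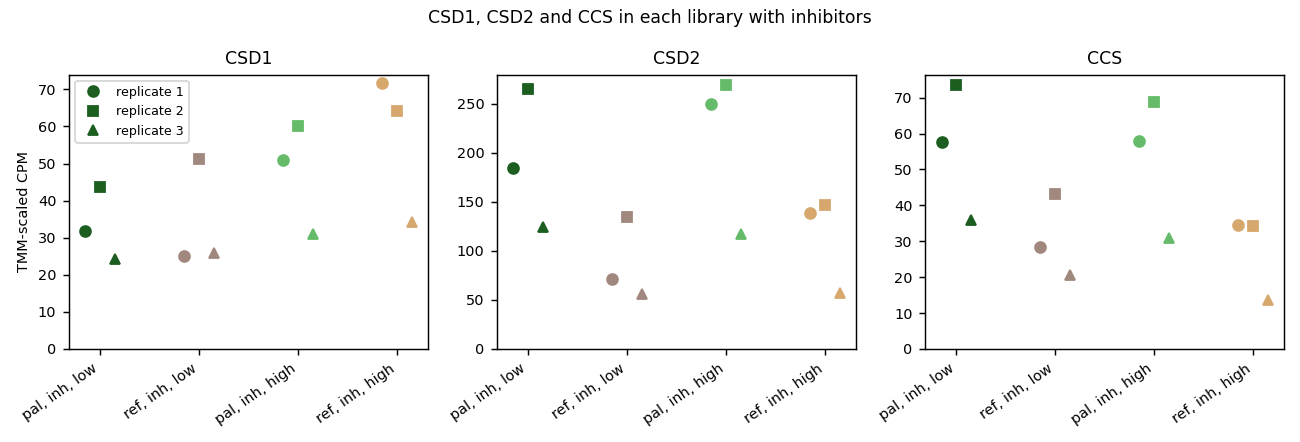
Level (CPM) of *CSD1*, *CSD2* and *CCS* in the 3 replicates of each of the 4 groups with inhibitors; circles, squares and triangles are replicates 1, 2 and 3. Replicate 3 is the lowest in all panels except *CSD1* in reference cells at low light, where it is 25.8 CPM and replicate 1 is 25.1 CPM.

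Root protoplasts were compared with both leaf populations without inhibitors. *CSD1* alone of the 10 genes was far higher in root, at 557.0, 686.7 and 470.1 CPM against 53.3 to 68.3 CPM in palisade cells (log2 fold change 3.18, SE 0.22, FDR 1.93e-08), and by 3.01 against reference cells. The chloroplast genes *tAPX* (-6.83, SE 0.30) and *FSD1* (-5.84, SE 0.29) were lower in root than in palisade cells, with 1.30 to 2.58 CPM and 9.76 to 19.5 CPM in the root libraries. *GPX7* was counted 1, 5 and 4 times in the root libraries, 10 counts in all, at a log2 fold change of -8.09 (SE 0.46) against palisade cells that such counts fix only loosely. *FSD2*, *CSD2* and *FSD3* were lower by 2.23, 1.72 and 1.52 on that scale, so that all 6 genes called lower encode chloroplast enzymes.

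*sAPX* did not follow them. It was measured at 125.9, 106.9 and 108.0 CPM in root, above all palisade libraries without inhibitors although the difference of 0.40 did not pass the test (FDR 0.0641), and above reference cells by 1.01 (SE 0.18, FDR 0.000188). *APX1* did not pass against palisade cells (-0.33, FDR 0.199) and was lower in root than in reference cells (-0.66, FDR 0.0106), a call lost without replicate 1 (FDR 0.158) or replicate 3 (FDR 0.06). Scaled by total counts instead, the mean level of *APX1* was 1294 CPM in root and 1175 CPM in reference cells. In all, 1 of the 10 genes was higher and 6 were lower in root than in palisade cells, where 77.6% of all genes tested passed (45.1% higher, 32.5% lower). Against reference cells 2 were higher and 7 lower, beside 78% of all genes (44.5% higher, 33.5% lower). The median of all genes was 0.38 and 0.31 in these comparisons (0.58 and 0.46 with upper-quartile scaling). Of their relatives, *TL29* (-9.49) and *GPX1* (-5.99) were lower in root than in palisade cells, and *MDAR3* (7.28), *GPX8* (2.28), *GPX3* (1.47) and the mitochondrial dismutase gene *MSD1* (1.11) were higher.

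Ordered by mean level over the 9 groups, the genes fell into few patterns. *GPX7* stood highest in palisade cells after high light (147 ± 12.1 CPM, SD, n = 3), then reference cells after high light (55.1 ± 2.68 CPM) and palisade cells without inhibitors (17.1 ± 7.49 CPM), each beyond the range of the next. From palisade cells with inhibitors (8.43 ± 0.557 CPM) down to reference cells with inhibitors (2.32 ± 0.342 CPM), neighbours in the order overlapped, and root stood below all (0.0583 ± 0.0348 CPM). *APX1* was highest in reference cells without inhibitors (1297 ± 234 CPM), and only palisade (408 ± 181 CPM) and reference cells (362 ± 120 CPM) with inhibitors at low light stood apart below the rest. *FSD1* was highest in palisade cells with inhibitors, in low (1442 ± 232 CPM) and high light (1390 ± 97.1 CPM), which overlapped, and *tAPX* had the same 2 groups at its top (332 ± 29.0 and 319 ± 29.6 CPM). *CSD2* was highest in palisade cells without inhibitors (355 ± 55.9 CPM), above the range of any other group, and *FSD3* varied least among leaf groups, from 9.40 ± 1.65 to 17.6 ± 4.32 CPM with overlap between all neighbours.

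Genes most like each of the 10 were found by Pearson's r of mean log2 CPM over the 9 groups, which share libraries and scaling, and are given with no test. *APX1* was most like the protein kinase gene *APK2B* (r = 0.991), and *sAPX* was most like *PGI1* (r = 0.986), a plastid phosphoglucose isomerase gene. *APX2*, with its few counts, reached only r = 0.855, with *SOS5*. *CSD1* was most like *AT1G13480* (r = 0.997), and *CSD2* was most like *AT5G23480* (r = 0.952), followed by its chaperone gene *CCS* (r = 0.951). For *FSD1* the most alike was *SSR16* (r = 0.999), for *FSD2* it was *NFU2* (r = 0.997), which encodes a chloroplast iron-sulfur scaffold protein, and for *FSD3* it was *AT5G15390* (r = 0.994). *GPX7* was most like *AT2G37540* (r = 0.992), and *tAPX* was most like *AT1G67700*, followed by *SKL1* (r = 0.999). No relative of *GPX7* or *APX1* from the lists was among the 3 genes most like it over the 9 groups. Over the 8 leaf groups, without root, such relatives were among them. *DHAR2* ranked 2nd for *APX1* (r = 0.993), and *GPX2* ranked 2nd for *GPX7* (r = 0.992). *CCS* was no longer among the 3 genes most like *CSD2*. The gene most alike changed for every member except *APX2*, which kept *SOS5*. The values of r over the 9 groups include the contrast of leaf and root. For *FSD1*, root averaged 15.2 CPM and the leaf groups 467 to 1442 CPM.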

How the data were processed

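The values analysed are read counts per gene, deposited by the authors without normalization. They had aligned 50-bp strand-specific reads with TopHat 2.0.9 (TAIR10) and used HTSeq 0.6.1 in intersection-strict mode for counting. HTSeq leaves out reads with several alignments. Of the 50-base windows of *FSD2*, 3.53% occur more than once in the same orientation in the TAIR10.1 genome, and none of those of the other 9 genes do. TAIR10.1 is not the build used by the authors, so only names, transcript lengths, repetition and overlaps were taken from it, and no coordinates or sequences are given. *CSD1* and *GPX7* overlap a gene on the opposite strand. The paper does not state whether the counting was stranded, and the part of such reads was not tested.

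Groups came from the sample labels. Chloroplast (133) and mitochondrial (146) genes were left out, and a gene was kept where 3 or more libraries had 2 or more counts. Genes were tested with edgeR 4.0.16 (R 4.3.3, TMM, quasi-likelihood test) on the 6 libraries compared, or 12 for differences between comparisons, with results for all genes adjusted together. The standard error is the log2 fold change divided by the square root of F, which is approximate. Palisade and reference libraries with the same pairing letter come from 1 pool, which was a block; their deviations from group means correlated across genes, with r of 0.239 to 0.721. Libraries that differ in light, inhibitors or organ share no pool, and no block was used. Named genes are all 10 members, from each list up to 4 genes with the largest change among those that passed, and for each member the genes most alike over the 9 groups. *CCS*, *CAT2*, *GPX1*, *GPX3*, *GPX8*, *MSD1*, *GR1* and *GSH1* were added after their values were seen. The members and lists were chosen with earlier results of these data known. The alternatives tried were upper-quartile scaling, the likelihood ratio test of edgeR, DESeq2 1.42.0, no filter and a filter of 10 counts, TREAT, all 27 libraries fitted together, the block added or removed, and each replicate left out. Mean levels were also computed with total counts and with upper-quartile scaling over the 27 libraries, without a test. The fit was tested on simulated counts. Figures were drawn with matplotlib 3.10.9.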

Additional observations from a re-analysis of the deposited data

Results flagged for a closer look

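For 5 results the difference between populations itself differed between arms of the study by an interaction test. The difference between palisade and reference cells in *APX1* was lower without inhibitors than with them, by -0.47 on the log2 scale. The difference between populations was larger in the *IQD22* line than in JR11-2 for *GPX7* by 1.04, for *CSD2* by 0.82, for *sAPX* by 0.31 and for *tAPX* by 0.30. With a replicate left out, *GPX7* and *CSD2* kept their calls each time. The calls of *sAPX* (FDR 0.088 to 0.528) and *tAPX* (FDR 0.0562 to 0.34) were lost each time, and that of *APX1* in some fits (FDR 0.0136 to 0.554). Within pools, *APX1* gave log2 fold changes of 0.00 with and -0.36 without inhibitors, and *CSD2* gave 0.96 in the *IQD22* line and 0.16 in JR11-2.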

How the results depend on the processing

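Over all alternatives in which differences were tested, those among the 10 genes that passed kept their direction in 735 of 735 cases. Of these, 115 no longer passed, 45 of them under TREAT, which tests against a 2-fold difference. Levels scaled by total counts were not tested and are not among these cases. On that scale *APX1* averaged 1294 CPM in root and 1175 CPM in reference cells without inhibitors, and *CSD2* 168.9 and 160.3 CPM. Both genes had been called lower in root than in reference cells. Differences that did not pass turned sign in 38 cases, and 20 passed under an alternative.

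The number of the 10 genes past an FDR of 0.05 was 5 with inhibitors at low light, 7 without inhibitors, 6 after high light and 6 in JR11-2 with the pool as a replicate block, and 2, 4, 2 and 0 with no replicate block (2-fold calls 1 with inhibitors and 0 in JR11-2). With all 27 libraries fitted together, which also drops the pool, it was 3, 5, 2 and 1 (2-fold 2 without inhibitors). Without the block the inhibitor interaction passed 0 and the line interaction 0 genes (2-fold 0). Where numbers do not mark a pool, adding the replicate block changed 3 calls: *CSD1* passed for light (0.39, FDR 0.0291 and 0.55, FDR 0.024) and *sAPX* for inhibitors in reference cells (-0.38, FDR 0.0324), and 3 genes passed the 2-fold call there instead of 1. Same-numbered libraries of these comparisons did not all deviate together (r of -0.169 to 0.314).

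Under TREAT the 2-fold calls were 1 with inhibitors at low light, 0 in JR11-2, 1 and 1 for light in palisade and reference cells and 0 for inhibitors in palisade cells. The 2-fold count for inhibitors was 1 with upper-quartile scaling and 4 with at least 10 counts in palisade cells, and in reference cells 3 with DESeq2, upper-quartile scaling, at least 10 counts or all 27 libraries and 2 with no filter, where *CSD1* and *CSD2* lie at 2-fold. For the line interaction, 2 genes passed with DESeq2, 2 (2-fold 0) with upper-quartile scaling and 2 (2-fold 0) with at least 10 counts. With 1 replicate left out, the counts ranged from 3 to 5 for light and 3 to 7 for inhibitors in palisade cells, from 0 to 1 for the inhibitor interaction and from 2 to 2 for the line interaction (2-fold 0 to 1), and the 2-fold counts were 1 to 2 with inhibitors, 1 to 2 without them and 1 to 3 for inhibitors in reference cells. The causes were not tested.

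The sign turned, for differences that did not pass, with at least 10 counts in *APX1* with inhibitors at low light (-0.015), *tAPX* for the inhibitor interaction (-0.019) and *FSD1* for the line interaction (-0.027, and -0.022 with upper-quartile scaling). It turned with upper-quartile scaling for light in *CSD2* (-0.068) and *FSD2* (-0.108) in palisade and *FSD2* (-0.008) in reference cells. With all 27 libraries it turned in *FSD3* with inhibitors (0.125) and in *tAPX* (0.084) and *FSD1* (0.089) for light in reference cells. For *APX2*, root against palisade cells gave -0.027 with DESeq2 and -0.011 with the replicate block. Leaving out replicates gave ranges across 0 with inhibitors at low light for *APX1* (-0.060 to 0.083) and *FSD3* (-0.124 to 0.068), in JR11-2 for *FSD2* (-0.053 to 0.222), for light in palisade cells for *CSD2* (-0.113 to 0.102) and *FSD2* (-0.080 to 0.084) and in reference cells for *CSD2* (-0.067 to 0.398), *FSD1* (-0.173 to 0.034), *APX2* (-1.156 to 0.439) and *FSD2* (-0.051 to 0.256). The same held for inhibitors in *sAPX* in palisade (-0.176 to 0.008) and *APX2* in reference cells (-0.496 to 0.395) and for root in *APX2* (-1.164 to 0.726 and -1.203 to 0.385). It held for the light interaction in *CSD1* (-0.406 to 0.087) and *FSD1* (-0.152 to 0.018), the inhibitor interaction in *CSD1* (-0.368 to 0.135), *CSD2* (-0.328 to 0.027) and *FSD2* (-0.006 to 0.324) and the line interaction in *FSD1* (-0.041 to 0.047), *CSD1* (-0.071 to 0.192) and *FSD3* (-0.115 to 0.301).

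Counts over all genes that moved by more than 1.5 times were, with no replicate block, 2726 of 5740 with inhibitors, 2869 of 6936 without, 4022 of 7093 after high light and 95 of 3972 in JR11-2, and 9 of 1112, 46 of 973 and 355 of 3170 for the interactions of light, inhibitors and line. With all 27 libraries they were 2972, 3354, 2909 and 261 for the 4 population comparisons. DESeq2 gave 3610 with inhibitors, 4538 after high light, 2409 in JR11-2, 589 for the light and 1946 for the line interaction. Leaving out a replicate gave 2338 in JR11-2 (replicate 1), 3650 of 6616 for light and 3832 of 6961 for inhibitors in palisade cells (replicate 2), 496 to 639 for the light interaction, 375 for the inhibitor interaction and 1587 to 2027 for the line interaction.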
